A study of Rattus norvegicus with 24 samples.

Results

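Cytosolic ribosomal protein genes were followed in 24 rat hearts. They were taken as the genes whose symbol begins with Rpl or Rps and a digit, together with Rplp0, Rplp1, Rplp2 and Rpsa, without the Rps6k kinases and without symbols ending in l1 or ps. Only probe sets that the array annotation ties to 1 symbol were used, and the brightest probe set stood for its gene. The rule gave 43 of 10411 genes with such a probe set: 28 of the large subunit, 14 of the small subunit and the stalk protein Rplp0. Rplp1 was not among them, because its probe set carries several symbols, and neither were Rpl10 and Rps18 for the same reason.

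The arrays were from male Wistar Kyoto rats, 12 to 14 weeks old when purchased, instilled into the trachea once a week with 1 mL/kg. All rats, the saline controls included, were anesthetized with halothane for each instillation and were killed 48 hr after the last one. The exposures were MSH (ash of Mount St. Helens, with no water-soluble zinc), PM-HD (oil combustion particles at the high dose, with 14.5 μg/mg water-soluble zinc and 3.0 μg/mg nickel), PM-LD (the same particles at the low dose, labeled 7.25 μg/mg zinc and 1.5 μg/mg nickel), PM-L (the saline-leachable fraction of the particles), zinc sulfate and saline, with 4 rats each. The labels give the zinc sulfate solution as 14.5 μg/mL in one field and as 33.4 μg zinc per mL in another. By the paper, PM-L held the soluble zinc and nickel of the PM-HD suspension without its solids. The paper matched the zinc sulfate dose to the soluble zinc of PM-HD and PM-L. It gives 33.4 μg zinc/kg per week for its longer exposure, and a higher weekly dose for rats given 8 instillations. The methods give 8 weekly instillations for the arrays compared there, which were MSH, PM-HD, zinc sulfate and saline. The labels give no exposure time for any array, PM-LD and PM-L included. The study asked whether injury of the heart comes from zinc that leaves the particles and reaches it, or follows inflammation of the lung.

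A ribosome has a small subunit that reads the messenger RNA and a large subunit that joins amino acids, and each is built of ribosomal RNA and many proteins made in near-equal numbers. In vertebrates the messenger RNAs of these proteins mostly begin with a C followed by a run of pyrimidines, the 5′ terminal oligopyrimidine (TOP) motif, through which mTOR, a growth-regulating kinase, controls their translation. Ribosomes increase when the heart grows, and heart and skeletal muscle also express Rpl3l, a paralog that can take the place of Rpl3 in the large subunit.

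Start-site sequences are given for genes on which the results turn and for 2 with typical starts. The TOP motif, described for most genes of this kind, is a feature outside the expression data. Each is 60 bases of RefSeq build GRCr8, 40 before and 20 from the annotated start, read 5′ to 3′ on the gene's strand, and the capitals mark the longest C followed by at least 5 pyrimidines that begins within 15 bases of the start.
Rpl3 (chr7:113507971-113508030, minus strand): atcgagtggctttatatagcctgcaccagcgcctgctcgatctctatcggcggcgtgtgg
Rpl3l (chr10:14258406-14258465, plus strand): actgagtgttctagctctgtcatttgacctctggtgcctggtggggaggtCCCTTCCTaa
Rpl13a (chr1:104748894-104748953, minus strand): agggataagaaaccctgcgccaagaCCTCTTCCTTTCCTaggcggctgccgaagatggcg
Rps28 (chr7:15311314-15311373, minus strand): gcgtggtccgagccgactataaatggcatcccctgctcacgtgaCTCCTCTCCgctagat
Rplp0 (chr12:46718371-46718430, minus strand): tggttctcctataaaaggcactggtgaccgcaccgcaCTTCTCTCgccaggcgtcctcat
Rps24 (chr16:96477-96536, plus strand): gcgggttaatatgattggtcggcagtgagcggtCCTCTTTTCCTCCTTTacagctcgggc

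Rpl13a, Rps28, Rplp0 and Rps24 each carried such a run near the annotated start, and the Rpl3 window held none under this definition. The run in the Rpl13a window lay wholly before the annotated start, and those in the Rpl3l and Rps28 windows wholly inside the transcribed part. Only the runs of Rplp0 and Rps24 spanned the annotated start. Of the 38 genes with an entry in the promoter table, 27 (71.1%) held a run, against 23.6% of all 33469 promoters in the table searched in the same way. In the full windows of 300 bases (250 before and 50 from the start), both strands searched, GGGCGG, a core bound by SP1, occurred in 63.2% of the 38 and in 33.1% of all promoters. CCGGAAG, a core bound by ETS factors such as GABP, occurred in 21.1% of the 38 and in 8.75% of all promoters. These are letter matches, and a window without a match says nothing about binding.

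The values are fluorescence signals from the Affymetrix software, scaled so that arrays have the same mean. Together the 43 genes held 2.28% to 2.84% of the summed signal of an array. Rpl30, Rps27l and Rps4y2 had mean signals of 71.3, 138 and 174, below the median probe set at 241.6, and their values were noisy. A brighter probe set for Rpl30, outside the rule because it also carries the symbols of Rpl30 relatives, had a mean signal of 9249. The methods describe the tissue as left ventricle with septum, and all 10 ventricular cardiomyocyte markers were well detected, with mean signals of 11905 or more. The mean log2 signal of 4 atrial markers ranged between rats from 7.84 to 13.19, and its part in the results was not tested. In whole tissue, fewer cells of a type and less RNA per cell cannot be told apart. Saline replicate 1 stood apart on the 5S ribosomal RNA control, with a signal of 21.8 against 69.2 to 204.9 on the other 23 arrays.

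Almost none of the ribosomal protein genes passed the test for a change with exposure. A gene was called when limma, a linear model with moderated variances fitted to all 15866 probe sets, gave an unadjusted p under 0.05 together with a mean more than 25% above or below that of the comparison group. These limits were taken from the study's methods. For MSH versus saline 1 of 43 genes was called, Rpl37a, where 3.18% of all probe sets were called. For PM-HD versus saline none of 43 was called, against 3.22% of all probe sets. For PM-LD versus saline none was called, against 4.11%, and for PM-L versus saline none, against 4.25%. For zinc sulfate versus saline 1 of 43 was called, again Rpl37a, against 3.94% of all. For zinc sulfate versus MSH none was called, against 5.89%. No gene of the 43 had an adjusted p (Benjamini-Hochberg over all probe sets) under 0.05 in any of these comparisons, and the lowest was 0.785. Of all probe sets 0.0126% had one for PM-L versus saline, and 0% in each of the other comparisons and in the F test. In the limma F test for any difference among the 6 groups none of 43 had an unadjusted p under 0.05, against 5.01% of all probe sets, and the lowest was 0.0771 for Rps3, a small subunit protein at the messenger RNA entry. The 5 comparisons with saline share the same 4 saline rats. Arrays with a Gapdh 3′/5′ ratio above 3 (a control read within each array) were left out in a further fit, a choice made after the data were seen. Without these 9 arrays 1 of 43 was called for PM-LD versus saline (Rpl30, against 6.39% of all probe sets) and 2 for PM-L versus saline (Rpl23a and Rps4y2, against 4.95%). In zinc sulfate versus MSH 5 were then called, Rpl13a, Rpl35, Rps28 and Rpl3 lower and Rpl3l higher, against 11.4% of all probe sets.

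**Figure D1:**
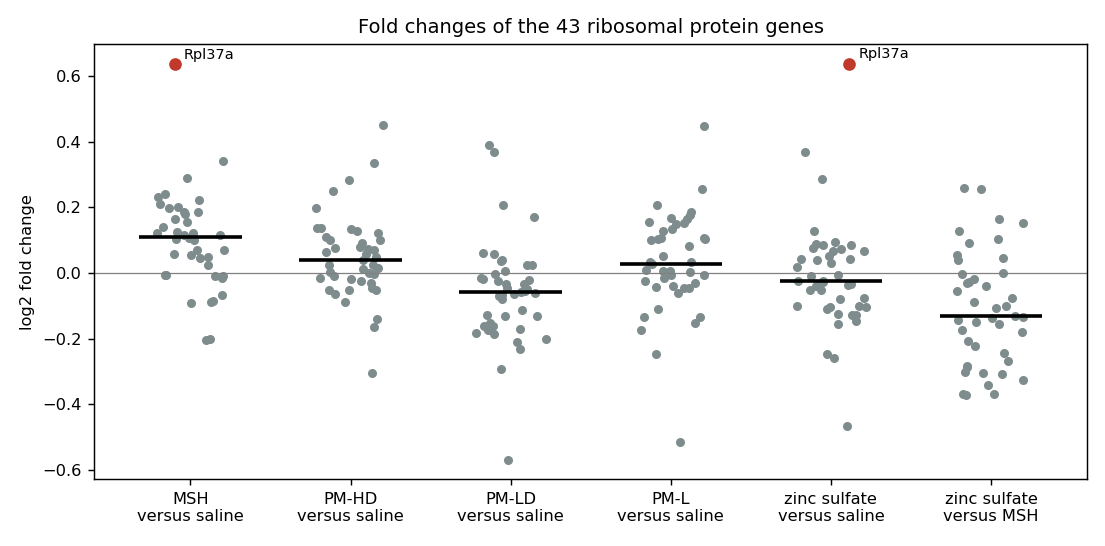
Log2 fold change of each of the 43 ribosomal protein genes (points) in the 6 comparisons, quantile normalized, with black lines at the medians. Called genes are red and named. Rpl37a is the only one, in MSH and in zinc sulfate, and the medians lie between -0.13 and 0.11.

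Rpl37a encodes a zinc-binding protein of the large subunit. Its signal was 11724.5, 8195.7, 10197.3 and 11063.9 in the 4 MSH rats and 9920.7, 11263.1, 11540.9 and 10729.5 in the 4 zinc sulfate rats, against 2731.6, 9900.0, 9106.4 and 7544.5 in the saline rats. It was 6732.7, 9611.3, 6754.6 and 8675.1 in PM-HD rats, 6195.9 to 12040.1 in PM-LD rats and 6192.3 to 10164.4 in PM-L rats. The 4 zinc sulfate rats lay above the highest saline rat on the deposited scale, but the groups overlapped after quantile normalization, and the MSH rats overlapped the saline rats on both. A single saline rat lay far below every other heart. The log2 fold change was 0.64 ± 0.30 (SE) in MSH and 0.64 ± 0.30 in zinc sulfate, with limma adjusted p-values of 1.00 and 0.999. The exact permutation test of 4 against 4 rats, 2-sided, gave p = 0.143 for MSH and p = 0.0857 for zinc sulfate, where the smallest value it can give is 0.0286. The low rat was saline replicate 1, the array with the low 5S control. Its title also carries a number outside the run of the other arrays and a suffix that they lack, which the labels do not explain. Without this array the fold changes were 0.21 in MSH and 0.21 in zinc sulfate, and neither was called. The MSH call was also lost without MSH replicate 1, 3 or 4, and the zinc sulfate call without zinc sulfate replicate 2, 3 or 4.

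**Figure D2:**
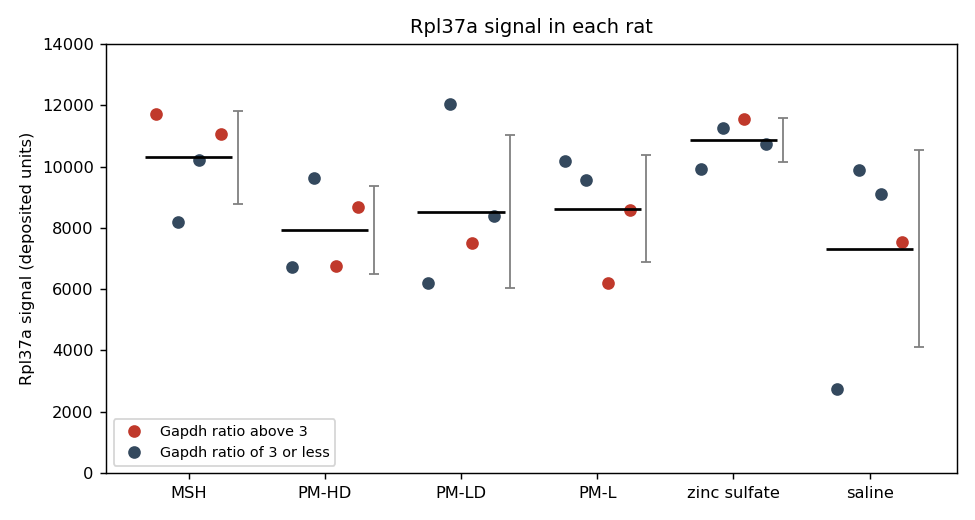
Rpl37a signal (deposited units) in each of 24 rats by group, replicates 1 to 4 left to right. Black lines are means and grey bars SD (n = 4), and red points are arrays with a Gapdh 3′/5′ ratio above 3. Saline replicate 1, at 2731.6, lies below every other array.

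The remaining genes differed little between exposed and saline hearts. With MSH, 32 of 43 genes had a log2 fold change above 0 and the median was 0.11, where the median over all probe sets was 0.00. Under median centering 24 of 43 were above 0 and the median was 0.04. Next to Rpl37a the lowest limma p-values were those of Rpl35a (log2 fold change 0.23 ± 0.15, SE, exact permutation p = 0.0857) and Rpl21 (0.29 ± 0.20, exact p = 0.0571), both of the large subunit. Among negative values the lowest p-values were those of Rplp0, the core of the stalk that recruits translation factors, at -0.09, Rpl3l at -0.21 and Rpl41, the shortest ribosomal protein, at -0.09. Rpl22, a large subunit protein that also binds other RNAs, was the only one of 43 whose MSH and saline values did not overlap after normalization (log2 fold change 0.20, mean signal 7537.5 against 6629.8), where 3.13% of all probe sets did not overlap.

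With PM-HD the median of the 43 log2 fold changes was 0.04 and with PM-LD it was -0.06. Rps16, Rpl21 and the dim Rpl30 had the lowest p-values among positive values in PM-HD (0.20, 0.25 and 0.45), and Rps3, Rpl27 and Rpl3l among negative ones (-0.14, -0.17 and -0.31). Rpl30 was the only one of 43 without overlap between PM-HD and saline, at mean signals of 80.8 and 56.4, where 2.1% of all probe sets did not overlap. The brighter probe set with several symbols overlapped between the same groups, at a log2 fold change of 0.13 ± 0.18 (SE) and mean signals of 9774 and 9084. In PM-LD, Rplp0, Rps3a and Rpl37a had the lowest p-values among positive values (0.17, 0.21 and 0.39), and Rps15a, Rpl34 and Rpl18 among negative ones (-0.29, -0.20 and -0.18). None of 43 separated PM-LD from saline, where 2.29% of all probe sets did, and none separated PM-L (2.37%) or zinc sulfate (2.72%) from saline. Without saline replicate 1, Rps3a was called in PM-LD at 0.35, with a limma adjusted p of 0.896. The PM-LD median was 0.00 under median centering, so no direction can be read for that group.

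With PM-L the median was 0.03, and it was -0.02 under median centering. Rpl37a, Rps3 and Rpl35a (0.45, 0.17 and 0.21) and Rpl23a, Rpl18 and the dim Rps4y2 (-0.25, -0.13 and -0.52) had the lowest p-values on either side. With zinc sulfate the median was -0.03 under quantile normalization, but 0.20 under median centering, where 40 of 43 genes were above 0. It was 0.11 with the deposited scaling alone, where 36 were above 0. The medians over all probe sets were -0.01, 0.04 and -0.05 in the same order. Rps27l, a small subunit paralog that p53 induces in human cells, had the next lowest p after Rpl37a among positive values in zinc sulfate, at 0.29, with a mean signal of 147 ± 34.8 in zinc sulfate rats and 125 ± 21.1 in saline rats (SD, n = 4 each). Rpl24, of the large subunit, was lowest in p on the negative side at -0.26 (exact permutation p = 0.229). Without saline replicate 4 it was called at -0.42, with a limma adjusted p of 0.9999.

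The signals of Rps6 and Rpsa were read as those of genes with a distinct role. Rps6, the small subunit protein that S6 kinase phosphorylates, had mean signals of 12021.3 ± 771.6 in MSH, 11291.4 ± 954.0 in PM-HD, 10584.4 ± 456.7 in PM-LD, 10707.1 ± 1074.6 in PM-L and 11893.5 ± 672.9 in zinc sulfate rats, against 10984.0 ± 1495.2 in saline rats (SD, n = 4 each). Rpsa, also known as the laminin receptor, had 6069.7 ± 233.4, 6100.7 ± 165.0, 6369.4 ± 1212.1, 6630.3 ± 219.5 and 7127.8 ± 424.1 in the same order of exposures, against 6296.3 ± 62.6 in saline rats. On the deposited scale the 4 zinc sulfate rats (6539.7 to 7500.9 for Rpsa) lay above the highest saline rat (6368.2), but the groups overlapped after quantile normalization. Neither gene was called in any comparison under quantile normalization. Under median centering Rpsa was called higher in zinc sulfate versus MSH, where 4.36% of all probe sets were.

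Zinc sulfate was also set against MSH, the particles without soluble zinc. The median of the 43 log2 fold changes was -0.13 and 11 of 43 were above 0, where the median over all probe sets was -0.01. Rps16, near the decoding center, had the lowest limma p (-0.33 ± 0.16, SE, exact permutation p = 0.0571), with signals of 5205.4, 5476.4, 4857.3 and 5120.7 in zinc sulfate rats and 5359.0, 5223.3, 5941.3 and 6883.2 in MSH rats. Its unadjusted limma p was under 0.05, but its fold of 0.797 was within the 25% limit. Rpl24 had -0.31 and Rpl22 -0.30. On the positive side Rplp0, with 4786.7, 5074.6, 4232.3 and 5032.9 in zinc sulfate rats and 3663.1, 3744.1, 4248.0 and 3845.4 in MSH rats, had a log2 fold change of 0.17. After normalization it was the only one of 43 without overlap, where 5.16% of all probe sets did not overlap. The direction for the group of genes depended on the scaling: under median centering the median was 0.17 and 6 genes were called higher in zinc sulfate, against 4.36% of all probe sets (Rpl41, Rpl14, Rpsa, Rpl6, Rplp0 and Rpl27), and without zinc sulfate replicate 3, under quantile normalization, 6 other genes were called lower, against 5.36% (Rpl22, Rpl35, Rps28, Rpl3, Rpl13a and Rpl39).

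The mean level of the 43 genes varied between rats of a group, with a pooled SD of 0.14 within groups. The mean deviation of the 43 genes from their own averages, on the quantile-normalized log2 scale, ran from -0.21 in PM-L replicate 2 to 0.29 in zinc sulfate replicate 3. It was 0.05, 0.08, 0.06 and 0.14 in MSH, -0.02, -0.16, 0.05 and 0.25 in PM-HD, and -0.07, -0.17, 0.12 and -0.18 in PM-LD rats. It was 0.02, -0.21, 0.13 and 0.11 in PM-L and -0.09, -0.16, 0.29 and -0.16 in zinc sulfate rats, against -0.10, -0.03, 0.00 and 0.05 in saline rats. In zinc sulfate replicate 3, 40 of 43 genes stood above their own average, and in zinc sulfate replicate 4 only 7 did. The first principal component held 55.6% of the variance of the 43 genes over 24 arrays. Genes were not scaled to equal variance for it, so those of large SD, such as the dim Rps4y2 (0.83), counted for more. The spread of single genes was small: the median SD within groups was 0.19 on the log2 scale, against 0.31 for the 794 brightest probe sets.

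These swings went with the Gapdh 3′/5′ ratio, the signal of a control probe set at the end of the message over that of one at its start, which rises when RNA is shortened or copied incompletely. The ratio ran from 1.11 to 5.62 over the 24 arrays, and was above 3 on 9 of them: MSH replicates 1 and 4, PM-HD replicates 3 and 4, PM-LD replicate 3, PM-L replicates 3 and 4, zinc sulfate replicate 3 and saline replicate 4. In 5 of 6 groups the array with the highest ratio was also the one with the highest mean of the 43 genes. The exception was MSH. The mean deviation was above 0 on all 9 arrays with a ratio above 3 (median 0.12) and on 4 of the other 15 (median -0.09). This direction differed between scalings. Under median centering the mean was above 0 on 2 of the 9 arrays (median -0.07) and on 10 of the other 15 (median 0.02). The methods state that all RNA samples met a 28S/18S limit.

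**Figure D3:**
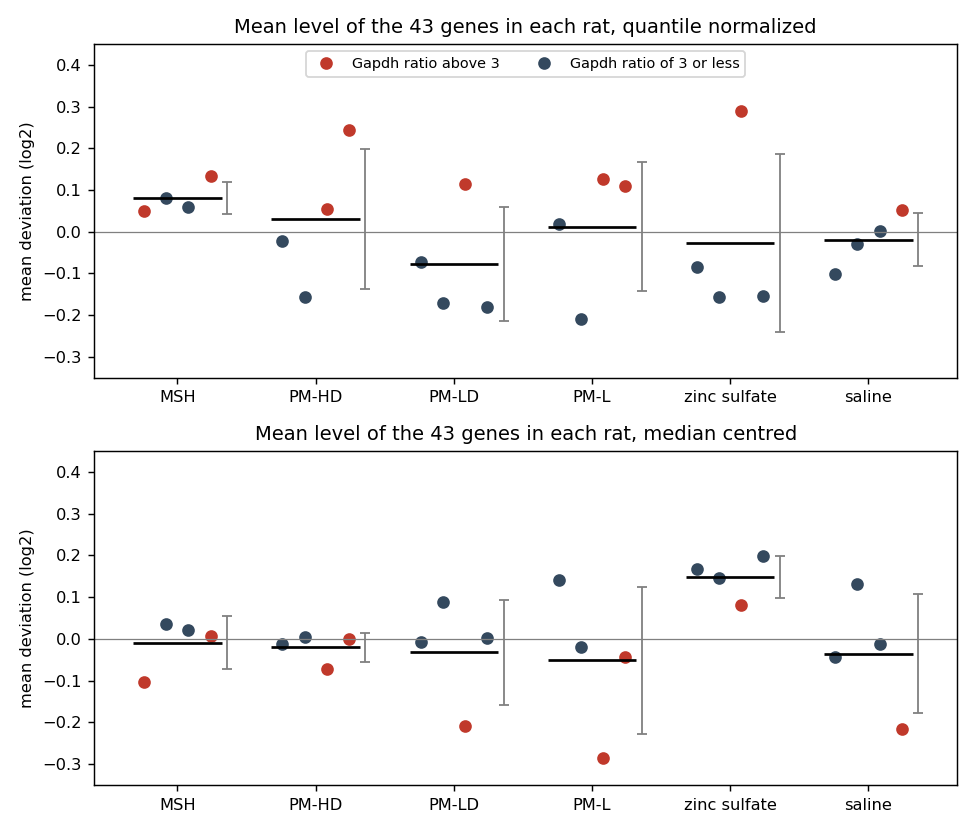
Mean deviation (log2) of the 43 genes from their own 24-array averages in each rat, quantile normalized (top) and median centred (bottom), with group means (black) and SD (grey, n = 4). Arrays with a Gapdh 3′/5′ ratio above 3 (red) are all above 0 in the top panel, and 2 of 9 are in the bottom panel.

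Rpl3 and its muscle paralog Rpl3l moved in opposite directions along that ratio. Rpl3 sits near the peptidyl transferase center of the large subunit. Its signal was 5761.9, 5765.3, 5398.6 and 6399.0 in MSH rats, 5741.3, 4381.3, 6963.1 and 7643.0 in PM-HD rats, and 5381.1, 4037.4, 7257.2 and 3200.9 in PM-LD rats. It was 5580.1, 3605.0, 6779.4 and 7656.8 in PM-L rats and 4316.9, 4013.8, 9017.7 and 3852.0 in zinc sulfate rats, against 4566.5, 4103.5, 5681.1 and 6071.7 in saline rats. Within the zinc sulfate group replicate 3 was more than double each of the others.

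Rpl3l had 2262.5, 3185.5, 3101.7 and 2227.4 in MSH rats, 3214.2, 3805.9, 2124.5 and 1554.8 in PM-HD rats, and 3276.8, 4460.2, 1697.6 and 4274.3 in PM-LD rats. It had 4003.7, 4136.2, 1868.5 and 2150.3 in PM-L rats and 3996.6, 4732.8, 1605.7 and 4934.0 in zinc sulfate rats, against 3311.9, 4308.4, 3298.6 and 2044.5 in saline rats. In 5 of 6 groups the rat with the highest Rpl3 had the lowest Rpl3l, PM-L being the exception. Rpl3l was 1554.8 to 2262.5 on the 9 arrays with a Gapdh ratio above 3 and 3101.7 to 4934.0 on the other 15, with no overlap, and Rpl3 was 5761.9 to 9017.7 on the 9 and 3200.9 to 5765.3 on the 15. After normalization Rpl3 and Rps28 lay wholly higher on the 9 arrays, where 0.807% of all probe sets did, and Rpl3l wholly lower, where 1.42% did.

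Within an array the ratio of the Rpl3 signal to the Rpl3l signal does not depend on scaling, although its size has no meaning beyond comparing arrays, because the 2 probe sets differ in response. It was 2.55 to 5.62 on the 9 arrays with a high Gapdh ratio and 0.749 to 1.81 on the other 15. Between exposures no difference in it passed the test. The mean log2 ratio was 1.13 ± 0.36 in MSH, 1.26 ± 0.93 in PM-HD, 0.56 ± 1.13 in PM-LD, 0.99 ± 1.02 in PM-L and 0.50 ± 1.34 in zinc sulfate rats, against 0.69 ± 0.69 in saline rats (SD, n = 4 each). The lowest of the 6 exact permutation p-values (5 exposures against saline and zinc sulfate against MSH, 2-sided) was 0.286 for MSH, and 0.800 after Benjamini-Hochberg adjustment over the 6.

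**Figure D4:**
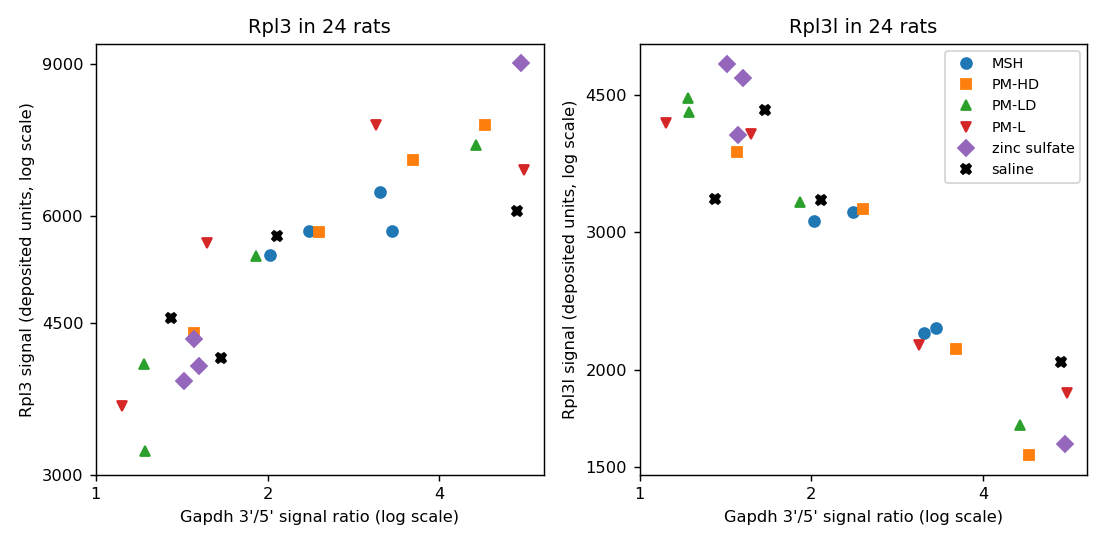
Signals of Rpl3 (left) and Rpl3l (right) in deposited units against the Gapdh 3′/5′ ratio, log axes, 1 point per rat with a symbol for each group. Rpl3 lies higher and Rpl3l lower at high ratios, and the saline rats (crosses) lie among the exposed rats.

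To size this for each gene, a slope on the log2 Gapdh ratio was added to the limma model beside the 6 group means, a choice made after the data were seen. Under quantile normalization 27 of 43 genes had a positive slope with an adjusted p under 0.05, against 18.1% of all probe sets, and 1 had a negative slope, Rpl3l, against 17.4%. The positive slopes numbered 17 with the replicate number as a block, against 11.7% of all probe sets, and 16 with the actin 3′/5′ ratio in place of that of Gapdh, against 10.1%. The median slope of the 43 was 0.15 on the log2 scale per doubling of the ratio, against 0.02 over all probe sets. Under median centering 3 were positive and 21 negative (median -0.13, against 13.4% and 23% of all probe sets), and with the deposited scaling alone 12 were positive and 6 negative (median 0.01, against 31.2% and 14.2%). With the deposited scaling alone the median of all probe sets was itself 0.12, so the 43 genes lay below it. The direction for the gene group therefore changed with the scaling, and 27 of 43 genes changed sign between quantile normalization and median centering.

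A few genes kept their direction under all 3 scalings with an adjusted p under 0.05. They were Rpl3 (slopes 0.58, 0.29 and 0.43 under quantile normalization, median centering and the deposited scaling, adjusted p = 1.90e-07 under the first), Rpl39, a small protein of the exit tunnel (0.33, 0.25 and 0.39), the dim Rps4y2 (0.65, 0.65 and 0.80) and, downward, Rpl3l (-0.54, -0.78 and -0.64, adjusted p = 1.21e-07 under quantile normalization). Rps28, at the messenger RNA exit, and Rpl13a, a large subunit protein that can leave the ribosome in human monocytes, had 0.39 and 0.38 under quantile normalization but 0.10 and 0.08 under median centering, where neither passed. Rplp0 was flat at -0.01 under quantile normalization and negative at -0.29 under median centering.

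**Figure D5:**
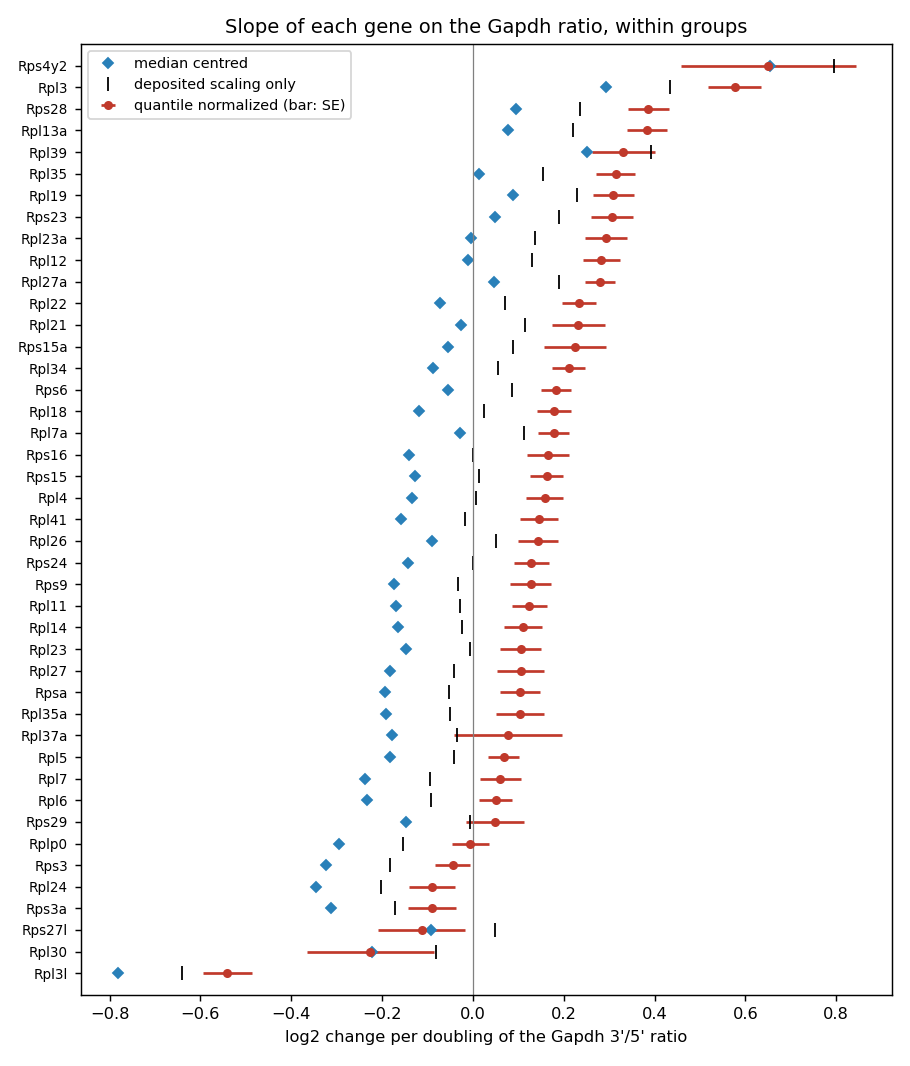
Slope of each of the 43 genes (rows) on the Gapdh 3′/5′ ratio within groups, in log2 units per doubling, under quantile normalization (red, with SE), median centering (blue) and the deposited scaling alone (black ticks). The 3 estimates of most genes straddle 0, while Rpl3 stays above 0 and Rpl3l below it.

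Markers of some other heart cells moved with the same ratio. All 5 endothelial markers had positive slopes with an adjusted p under 0.05 under each of the 3 scalings (median 0.65 under quantile normalization), and their summed signal was 12028.4 to 19244.7 on the 9 arrays with a high ratio and 5268.5 to 11369.5 on the other 15. By group it was 10754.1 to 12867.2 in MSH, 7257.8 to 14836.0 in PM-HD, 5477.9 to 13240.1 in PM-LD, 5268.5 to 13545.7 in PM-L and 6517.7 to 19244.7 in zinc sulfate rats, against 8219.3 to 13958.7 in saline rats. Of 7 fibroblast markers 6 had positive slopes under quantile normalization and 1 under median centering, and of 4 smooth muscle markers 3 and 1. Of 10 ventricular cardiomyocyte markers 6 were negative and 1 positive under quantile normalization, 4 and 0 under median centering, and 3 and 3 with the deposited scaling alone. None of 6 macrophage markers passed under quantile normalization. There all 4 atrial markers had negative slopes (median -0.75), 1 of them with an adjusted p under 0.05. Positive slopes passed for 2 of 3 red blood cell, 1 of 2 neutrophil, 1 of 4 adipocyte and 1 of 8 lymphocyte markers. No negative slope passed in these lists. Of 6 skeletal muscle markers 2 were positive and 1 negative. Of all probe sets 18.1% were positive and 17.4% negative. Of the cell type markers, those called between exposures were Nppa (log2 fold change 1.41) and C1qb (0.61) in PM-L, Cd3e (-1.08) in PM-LD and C1qa (-0.44) in zinc sulfate, each versus saline, and Acta2 (-0.53) in zinc sulfate versus MSH, with limma adjusted p-values from 0.785 to 0.999. Of all probe sets 3.94% to 5.89% were called in these comparisons. The parts of RNA integrity and of cell makeup in the swings of the ribosomal protein genes were not tested.

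Other genes of translation were read from fixed lists. The mitochondrial ribosomal proteins, which build the separate ribosome of the mitochondrion, ran down with the ratio whatever the scaling: of 71 genes 53, 63 and 57 had negative slopes with an adjusted p under 0.05 under quantile normalization, median centering and the deposited scaling, and 1, 0 and 1 positive slopes. Their summed signal was 58484.8 to 86366.5 on the 9 arrays with a high ratio and 88893.3 to 108565 on the other 15. Of 35 translation initiation factors 18 were negative and 4 positive under quantile normalization, and of 11 elongation and release factors 5 and 2. Of 52 ribosome biogenesis genes 13 were negative and 7 positive under quantile normalization, but 6 and 14 with the deposited scaling alone. Of 12 other genes with TOP messages 5 were positive and 1 negative under quantile normalization, and 2 and 6 under median centering. Of 17 genes of mTOR signaling and translational control 3 were positive and 3 negative under quantile normalization, 1 and 7 under median centering, and 5 and 4 with the deposited scaling alone.

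Calls between exposures in these lists were set beside the share of all probe sets called. None of the 35 initiation factors, 11 elongation and release factors, 12 TOP genes and 71 mitochondrial ribosomal protein genes was called for MSH, PM-HD, PM-L or zinc sulfate versus saline. Of all probe sets 3.18% to 4.25% were called in these comparisons. For PM-LD versus saline Mrps2, of the small mitochondrial subunit, was called at a log2 fold change of 0.48, with Tsr2 (0.51) and Imp4 (0.39) of ribosome biogenesis higher and the translation repressor Eif4ebp3 lower (-0.49). For zinc sulfate versus MSH the called genes were Imp4 (0.51) and Eif1b (0.38) on the higher side, and Myc, a transcription factor that drives ribosome synthesis (-0.89), Rictor, a subunit of mTOR complex 2 (-0.43), Hnrnpa1, an RNA-binding protein (-0.59), Mrps12 (-0.69) and Mrpl1 (-0.45) on the lower side. These calls rest on unadjusted limma p-values, and their adjusted p-values ranged from 0.606 to 0.999. Of all probe sets 4.11% were called for PM-LD versus saline and 5.89% for zinc sulfate versus MSH.

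Ribosomal protein probe sets that carry several symbols, and so were outside the rule, gave similar values. These 32 probe sets stand for genes such as Rplp1, Rps2, Rpl10 and Rps18, most of them listed beside a pseudogene or a paralog whose RNA they could also detect. None was called for MSH, zinc sulfate or either dose of whole particles versus saline. For PM-L versus saline 1 was called higher, where 4.25% of all probe sets were called in either direction. For zinc sulfate versus MSH 1 was called lower, against 5.89% of all in either direction. Their median log2 fold change versus saline was 0.09 in MSH, 0.04 in PM-HD, -0.06 in PM-LD, 0.03 in PM-L and -0.01 in zinc sulfate. Of the 32, 17 had positive and 2 negative slopes on the Gapdh ratio under quantile normalization, and 1 and 18 under median centering.

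For 4 of the 43 genes, Rpl7, Rpl14, Rps24 and Rpsa, more than 1 probe set carried the symbol alone. The second probe sets of Rpl7, Rpl14 and Rps24 were dim, with mean signals of 184, 46.3 and 188. For zinc sulfate versus saline the Rpl7 probe sets gave 0.07 and 0.52 on the log2 scale, those of Rpl14 0.10 and 0.75, and those of Rps24 -0.05 and -0.10. The 3 Rpsa probe sets gave 0.03, -0.06 and -0.03, and their slopes on the Gapdh ratio were 0.10, 0.40 and 0.20, all positive. Over all 24 arrays Rpl5, which with Rpl11 restrains Mdm2 when ribosome assembly fails, varied least, with an SD of 0.09 on the log2 scale, followed by Rpl6 (0.11) and Rplp0 (0.13). Rps4y2 (0.83), Rpl30 (0.51) and Rpl3 (0.50) varied most, and the first pair of these was dim.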

How the data were processed

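Heart RNA of 24 rats (4 in each of 6 groups) was hybridized to an Affymetrix rat GeneChip, 1 color and 1 array per rat. The deposited values are linear signal intensities that the authors extracted with MAS5, as named in the submitters' processing notes, scaled to a common trimmed mean. The authors' own tests used RMA values, which were not used here. No background correction was added. The 57 control probe sets were set aside, 16 was added to each signal, log2 was taken, and the 24 arrays were quantile normalized in limma 3.58.1 (R 4.3.3). All 15866 probe sets were fitted with lmFit and eBayes, 1 mean per group, with Benjamini-Hochberg adjustment over all of them. The quoted calls follow the thresholds of the authors' methods. Exact permutation tests enumerate the 70 arrangements of 4 against 4 rats. The number of arrays limits the precision. The fit was tested on simulated data with known changes.

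Members and lists were chosen with earlier results of these data known. Genes were named by rule: called members, the 3 lowest p-values per direction and comparison, members with a distinct role or a paralog suffix, those of highest and lowest SD, members with several probe sets, and called genes of the other lists. Probe sets were named from the platform annotation, in which 12783 have 1 symbol, 312 several and 2771 none. Of the 43 members 41 matched RefSeq (GRCr8) by gene ID. Alternatives changed the pseudocount, the normalization, the filter, the prior, the probe sets, the fold limits or the arrays used. Leaving out arrays with a Gapdh ratio above 3 and the slope on that ratio were added after seeing the data. The methods call the 4 arrays of a group biological replicates.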

Additional observations from a re-analysis of the deposited data

Results flagged for a closer look

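Among 102 sets of 4 rats checked, 8 held a rat far from the others by Dixon's ratio of its gap to the group's range (past the 95% critical value), where chance gives about 1 in 20. In zinc sulfate rats 6 measures met it, each through replicate 3, the array with a Gapdh ratio of 5.57: the mean level of the 43 genes (0.841), the log2 ratio of Rpl3 to Rpl3l (0.835), and the signals of Rpl3 (0.91), Rpl13a (0.92), Rps28 (0.941) and Rps4y2 (0.898). These 6 come from 1 array and are not independent. Rpl13a was 7411.1 there, against 4944.5 to 5141.3 in the other zinc sulfate rats, and Rps28 was 9447.5, against 5949.5 to 6154.2.

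In PM-HD rats Rpl7 was 5508.5 in replicate 1 and 6644.4 to 6672.7 in the others (0.976). In saline rats Rpl13a was 5367.4 in replicate 1 and 5605.4 to 5649.2 in the others (0.845), a small gap in a narrow range.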

How the results depend on the processing

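Without 1 array at a time, the number of ribosomal protein genes called ranged from 0 to 1 for MSH versus saline, 0 to 1 for PM-LD versus saline, 0 to 2 for zinc sulfate versus saline, 0 to 6 for zinc sulfate versus MSH and 0 to 1 for any difference among the groups, and stayed at 0 for PM-HD and PM-L. For MSH versus saline, median centering, the Gapdh ratio as covariate, the 16 arrays of MSH, PM-HD, zinc sulfate and saline alone, and leaving out arrays with a Gapdh ratio above 3 (chosen after seeing the data) each gave 0 called genes. For zinc sulfate versus saline, the 16 arrays alone gave 0, as did leaving out the arrays of high Gapdh ratio. The latter fit gave 1 for PM-LD (against 6.39% of all probe sets), 2 for PM-L (4.95%) and 5 for zinc sulfate versus MSH (11.4%). For zinc sulfate versus MSH, median centering gave 6 (all higher, against 4.36% of all probe sets), and removing the fold limit or setting it symmetrically gave 1. Without a fold limit, 1010 of all 15866 probe sets had an unadjusted limma p under 0.05 in that comparison. Rps3 was the 1 gene of the F test with a pseudocount of 64, with bright probe sets only and with the Gapdh ratio as covariate, as well as without PM-LD replicate 2, and Rpl24 was that gene without saline replicate 4. The F test adjusted p of the gene was 0.562 or more in each of these fits.

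The median log2 fold change under median centering was 0.20 for zinc sulfate versus saline and 0.17 for zinc sulfate versus MSH, and 0.019 for zinc sulfate versus MSH with no normalization beyond the deposited scaling. Over all probe sets these medians were 0.04, 0.06 and -0.10. The median slope on the Gapdh ratio was -0.13 under median centering, 0.0075 under the deposited scaling and 0.35 with the actin ratio in its place, and ranged from 0.14 to 0.16 without 1 array. Positive slopes numbered 3 under median centering, 12 under the deposited scaling, 16 with the actin ratio and 21 to 28 without 1 array, and negative slopes 21 and 6 under the first pair of these. Rpl37a in PM-LD ranged from -0.040 (without saline replicate 1) to 0.57 without 1 array, Rps4y2 in PM-L from -0.90 to 0.23 (without PM-L replicate 2), and Rps16 in zinc sulfate versus saline turned to 0.074 under median centering. The cause was not tested. Of the alternatives for the gene group, 329 stayed within 1.5 times the count or 1 SD of the median (1 SE for the slope), 39 moved further and 1 was counted as reversed. That 1 does not include every change of sign. Under median centering the medians for zinc sulfate versus saline, for zinc sulfate versus MSH and for the slope all changed sign.

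Replicate numbers were not treated as pairs in the main fit. Of 60 same-numbered pairs of arrays 22 correlated above 0.1 (median 0.06, highest 0.52), and the median for different numbers was -0.02. Of 24 arrays 11 correlated best with their own number. Whether the numbers mark a shared step was not tested. With the replicate number as a block, the counts of called genes were unchanged (1 for MSH and 1 for zinc sulfate versus saline, 0 in the others). Positive slopes on the Gapdh ratio numbered 17 with the block and 27 without it.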
